A study of Mus musculus with 6 samples.

Results

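Ribosome footprints on the genes of the mitochondrial genome were examined in mouse oocytes by Ribo-lite, which profiles ribosomes from few cells by sequencing the short mRNA fragments that they shield. The 10 genes described were chosen by name from the 22416 genes kept from the table: mt-Nd1, mt-Nd2, mt-Nd4, mt-Nd5 and mt-Nd6 of complex I, mt-Cytb of complex III, mt-Co1, mt-Co2 and mt-Co3 of complex IV, and mt-Atp6 of complex V. The 3 remaining protein-coding genes of this genome, mt-Nd3, mt-Nd4l and mt-Atp8, are given beside them where a result turns on them. The 6 libraries formed 3 groups of 2, each library from 500 oocytes: WT_FGO, fully grown oocytes before maturation, WT_MII, controls that had reached metaphase II, and Treat_MII, treated oocytes labelled with the same stage. All were wild type by label and came from ovaries. The study's methods describe young, PMSG-primed C57BL/6 females and culture with BYBX, a ligand that stabilizes RNA G-quadruplexes, or with its solvent DMSO; by label the last group is simply treated. With BYBX the paper found less polar body emission, and abnormal spindles in the oocytes that did reach metaphase II. No source used here says whether the libraries of a group came from separate mice, so the p-values measure only the spread between these libraries, which may be technical.

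The mitochondrial genome encodes core subunits of respiratory chain complexes I, III and IV and of the ATP synthase, complex V. Its mRNAs are translated inside the organelle by mitochondrial ribosomes, with their own initiation and elongation factors and a genetic code that differs from that of the cytosol, while most subunits of the same complexes are encoded in the nucleus, translated in the cytosol and imported. Oocytes hold very many mitochondria, which the embryo inherits. Pieces of mitochondrial DNA have also been copied into the nuclear chromosomes of the mouse. A short read from such a piece fits both genomes where the copy has stayed identical.

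The most visible feature was that 3 of the 10 genes, mt-Co2, mt-Co3 and mt-Atp6, were listed at 0 in all 6 libraries. The other 7 were above at least 92.2% of the genes in every library, with genes listed at 0 counted among these. mt-Atp8 and mt-Nd4l were also at 0 throughout. mt-Nd3 had 1 read, equal to 8.75 FPKM, in replicate 1 of Treat_MII and 0 elsewhere. FPKM is the number of fragments scaled to the length of the coding sequence and to the reads of the library. In mt-Co2, the subunit that accepts electrons from cytochrome c, 3 reads would have been 46.7 FPKM in the shallowest library and 13.3 FPKM in the deepest. The genes at 0 lie next to each other. Between positions 7013 and 10170 of the mitochondrial genome (GRCm38), 6 genes follow one another, namely mt-Co2, mt-Atp8, mt-Atp6, mt-Co3, mt-Nd3 and mt-Nd4l, and together they held 1 read of the 5688 reads on the 13 genes.

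The same stretch of the genome has a copy on nuclear chromosome 1. The first 30 bases of the 3 genes at 0 are shown, start codon in capitals, because each of these runs occurs letter for letter on both chromosomes.
mt-Co2: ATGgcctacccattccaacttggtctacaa
mt-Atp6: ATGaacgaaaatctatttgcctcattcatt
mt-Co3: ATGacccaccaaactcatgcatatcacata
In GRCm38 these windows stand on the plus strand at chrM:7013-7042, chrM:7927-7956 and chrM:8607-8636. The nuclear matches stand on the minus strand at chr1:24615536-24615565, chr1:24614622-24614651 and chr1:24613942-24613971. Over the full coding sequences the nuclear copy was 100% identical for mt-Co2 (681 bases), mt-Atp6 (678 bases), mt-Co3 (784 bases), mt-Atp8 (201 bases) and mt-Nd4l (294 bases).

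The single gene of this stretch with any read differed from its copy at 1 base of the coding sequence. mt-Nd3, a small membrane subunit of complex I, is shown with the nuclear copy, the differing base in capitals.
mt-Nd3: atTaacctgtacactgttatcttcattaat
nuclear copy of mt-Nd3: atCaacctgtacactgttatcttcattaat
The first window is chrM:9459-9488 on the plus strand and the second chr1:24613090-24613119 on the minus strand. The difference is T3C, counted from 1 at the first base of the coding sequence, mitochondrial base first. From base 4 to the last base, 345, the copy was identical.

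Each coding sequence was then divided into all of its overlapping words of 28 bases, near the length of a footprint, and the words that also occurred on either strand of the 21 nuclear chromosomes were counted. All words of 5 genes were repeated in this way, and these 5 were the genes at 0 in every library. Of the mt-Nd3 words, 99.1% were repeated, leaving 3 that were not. The 7 genes with fewer repeated words were above 0 in every library. Their repeated shares were 0% for mt-Nd1, 9.31% for mt-Cytb, 10.6% for mt-Nd6, 16.2% for mt-Nd2, 19.6% for mt-Nd5, 63.7% for mt-Nd4 and 66.7% for mt-Co1. With words of 34 bases mt-Co1 was at 61.2% and mt-Nd4 at 62.7%, and the genes at 0 were again at 100%. The copy on chromosome 1 ends within mt-Nd4, where it covers bases 1 to 876 of 1378. The nearest copy of mt-Co1 is on chromosome 2, with 97.6% identity over its whole length. Of the 1010 repeated words of mt-Co1, 746 occurred on that chromosome. How reads that fit several places were treated is not given in the sources used here, and its part in the zeros was not tested. A listed 0 for these genes is thus not read as a lack of footprints.

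**Figure D1:**
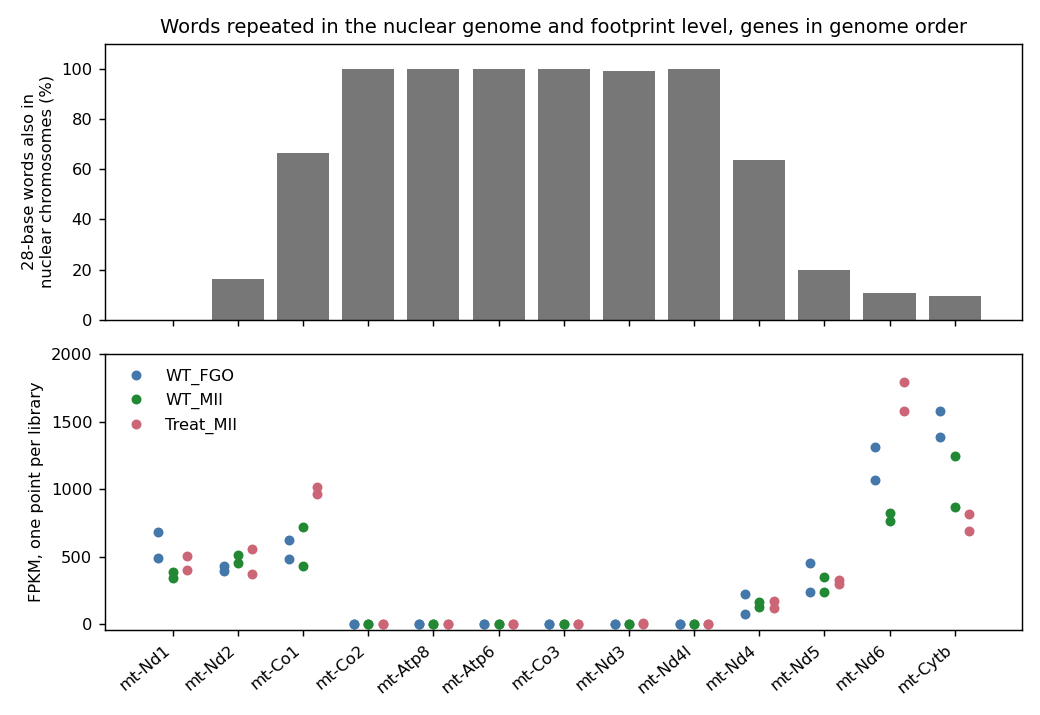
Upper panel, the percentage of overlapping 28-base words of each mitochondrial coding sequence that also occur in the nuclear chromosomes; lower panel, FPKM in each of the 6 libraries, 1 point per library, coloured by group, for the 13 genes in genome order. The 6 neighbouring genes from mt-Co2 to mt-Nd4l, with 99.1% or more of their words repeated, lie at 0 except for 8.75 FPKM of mt-Nd3 in 1 treated library.

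The 7 measured genes begin in different ways, and the starts of the 4 that carry most of what follows are shown with the start codon in capitals.
mt-Nd1: GTGttctttattaatatcctaacactcctc
mt-Co1: ATGttcattaatcgttgattattctcaacc
mt-Nd6: ATGaataattatatttttgttttaagttca
mt-Cytb: ATGacaaacatacgaaaaacacacccatta
mt-Nd1 (chrM:2751-2780), mt-Co1 (chrM:5328-5357) and mt-Cytb (chrM:14145-14174) are read from the plus strand, and mt-Nd6 (chrM:14041-14070) from the minus strand. mt-Nd6 is the only protein-coding gene on that strand. The strand setting of the read counting is not given in the sources used here. At mt-Nd6, as at the other genes, fragments of the opposite strand could thus not be told apart from the gene's own. The coding sequences of mt-Nd5 and mt-Nd6 overlap in GRCm38 between positions 13555 and 13562.

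Each library rested on few reads. The table's scaling implied 94309 and 107251 reads on coding sequences in WT_FGO, 164972 and 230907 in WT_MII, and 331304 and 275604 in Treat_MII. The reads on a measured mitochondrial gene ranged from 11 to 518. The deposited values give no read length or reading frame, so fragments shielded by ribosomes could not be told apart from other fragments of mitochondrial RNA. Intervals on single values cover counting error only, and how molecular identifiers were handled is not given in the sources used here. Among markers, 15 oocyte genes summed to 45122 to 64747 FPKM in WT_FGO, 21851 to 26011 in WT_MII and 33206 to 34426 in Treat_MII. At maturation 10 of the 15 were called lower in limma, where 3.09% of all genes were, with a median change of -2.53. The 1 called higher was Oosp1 (limma adjusted p = 0.000604), at 122 and 185 FPKM in WT_FGO. It was at 11263 and 15029 FPKM in WT_MII, a large part of the sums there. A list of 15 granulosa and cumulus genes, from the cells that surround the oocyte, summed to 955 and 2382 FPKM in the WT_FGO libraries, 2238 and 443 in WT_MII, and 360 and 388 in Treat_MII. Of these genes 6, 3 and 4 were at 0 in both libraries of the respective group. Single markers went different ways: Gja1, a gap junction protein, was at 92.5 and 740.4 FPKM in WT_FGO and at 0 and 3.78 in WT_MII, at least 30.6-fold lower and the 1 gene of this list called at maturation (limma adjusted p = 0.0376), Inha was at 747 in replicate 2 of WT_FGO, and Hsd17b1 was highest in replicate 1 of WT_MII, at 1956. Fshr, the FSH receptor, was at 13.5 FPKM in replicate 2 of WT_FGO and 0 elsewhere. The 8 blood cell genes summed to 64.5 to 81.1 FPKM in WT_FGO, 3.13 to 18.0 in WT_MII and 12.4 to 14.6 in Treat_MII, and Hba-a1, a globin gene, was called lower at maturation (limma adjusted p = 0.0361). The part of other cells in the mitochondrial values was not tested. In bulk libraries like these, fewer cells of a type and less RNA per cell cannot be told apart, and a value is a fraction of what its library holds, with no spike-in stated.

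mt-Cytb was highest in fully grown oocytes and mt-Nd6 in the treated ones. mt-Cytb, the cytochrome b subunit that carries the quinone sites of complex III, was at 1576 and 1386 FPKM in WT_FGO, 869 and 1249 in WT_MII, and 818 and 695 in Treat_MII. Each group lay below the one before it without overlap. mt-Nd6, a membrane subunit of complex I, was at 1315 and 1066 FPKM in WT_FGO, 764 and 823 in WT_MII, and 1790.0 and 1582 in Treat_MII. Both treated libraries lay above the other 4, and both WT_MII libraries below them.

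mt-Co1, the catalytic subunit of cytochrome c oxidase, was at 626 and 484 FPKM in WT_FGO, 428 and 719 in WT_MII, and 1014 and 965 in Treat_MII. Its treated libraries were above all others, while WT_FGO and WT_MII overlapped. mt-Nd1, a complex I subunit beside the quinone site, was at 489 and 684 FPKM in WT_FGO, 343 and 386 in WT_MII, and 506 and 399 in Treat_MII. Its WT_MII libraries were the lowest pair. mt-Nd2, a membrane subunit of the proton-pumping arm of complex I, was at 430.3 and 396 FPKM in WT_FGO, 451 and 515 in WT_MII, and 560 and 375 in Treat_MII, and its treated libraries spanned all of the others.

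mt-Nd5 and mt-Nd4, large subunits of the pumping arm of complex I, had the lowest mean FPKM of the 7 genes in each group. mt-Nd5 was at 454 and 241 FPKM in WT_FGO, 240 and 352 in WT_MII, and 327 and 301 in Treat_MII. mt-Nd4 was at 223 and 74.4 FPKM in WT_FGO, 132 and 163 in WT_MII, and 173 and 121 in Treat_MII. For both genes the 3 groups overlapped, and replicate 1 of WT_FGO was the highest library. The mt-Nd4 value of the other WT_FGO library rested on 11 reads.

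**Figure D2:**
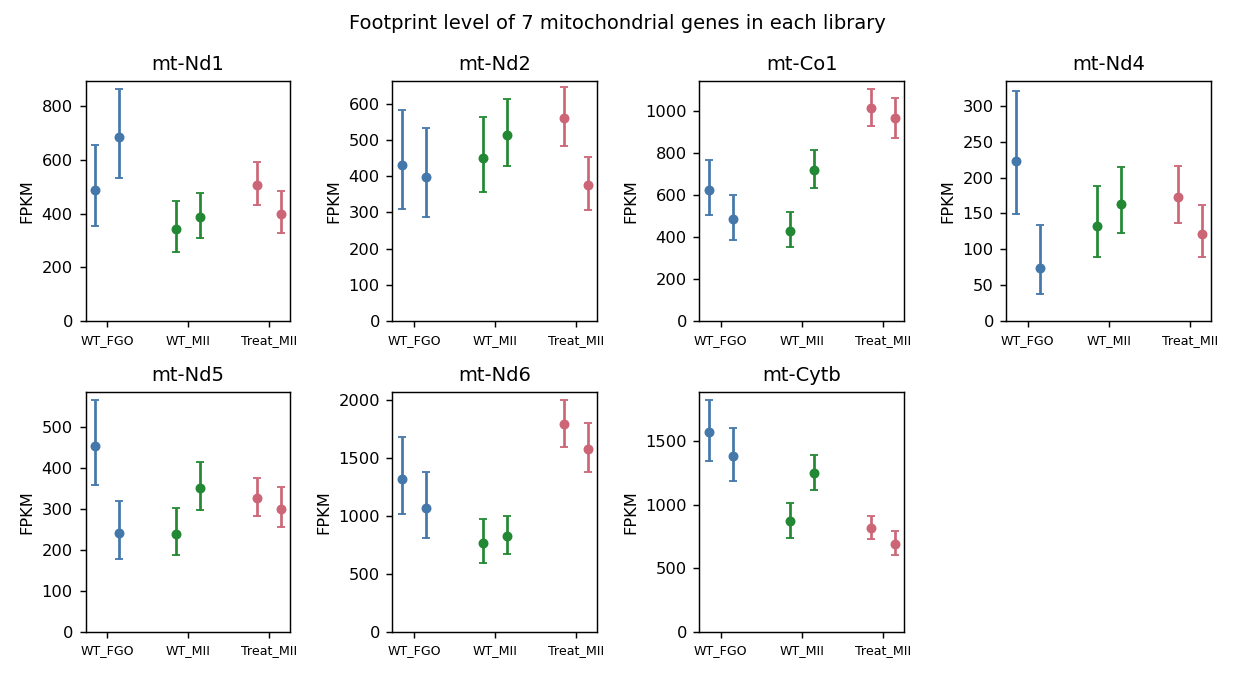
FPKM of each of the 7 measured genes in every library, in separate panels with their own vertical axes from 0, grouped as WT_FGO, WT_MII and Treat_MII; bars are exact 95% Poisson intervals of the recovered reads and cover counting error only. The treated libraries lie above the rest for mt-Nd6 and mt-Co1 and below the rest for mt-Cytb.

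The order of the genes shifted between groups. In WT_FGO the mean levels were 1481 ± 134 FPKM for mt-Cytb, 1191 ± 176 for mt-Nd6, 587 ± 138 for mt-Nd1, 555 ± 100 for mt-Co1, 413 ± 24.0 for mt-Nd2, 347 ± 151 for mt-Nd5 and 149 ± 105 for mt-Nd4 (SD, n = 2 throughout). In the libraries of this group mt-Cytb and mt-Nd6 were separated from each other and from the rest, while mt-Nd1 overlapped with mt-Co1 and mt-Nd2 with mt-Nd5. In WT_MII the order was mt-Cytb (1059 ± 269), mt-Nd6 (793 ± 41.7), mt-Co1 (574 ± 205), mt-Nd2 (483 ± 45.0), mt-Nd1 (364 ± 30.2), mt-Nd5 (296 ± 79.4) and mt-Nd4 (148 ± 22.2), and the neighbours mt-Co1 and mt-Nd2, and mt-Nd1 and mt-Nd5, overlapped. In Treat_MII mt-Nd6 stood first at 1686 ± 147 FPKM, mt-Co1 followed at 989 ± 34.8 and mt-Cytb came next at 756 ± 87.2. The libraries of these 3 genes did not overlap with each other in the treated group. They were followed by mt-Nd2 (468 ± 131) and mt-Nd1 (453 ± 75.6), which overlapped, and then by mt-Nd5 (314 ± 18.1) and mt-Nd4 (147 ± 36.7). Every value of mt-Cytb, mt-Nd6 and mt-Co1 was above those of at least 98.8% of the genes in its library, and every value of mt-Nd4 above at least 92.2%. Genes listed at 0 count in these percentages and made up 48.2% to 57.2% of the genes of a library.

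The order also depended on the length used. When the reads were divided by the number of 28-base words not repeated in the nuclear genome, an alternative chosen after seeing the data, mt-Co1 rose to 1694 ± 307 in WT_FGO, 1752 ± 627 in WT_MII and 3021 ± 106 in Treat_MII, in the units of FPKM with such words in place of the coding length. On that scale mt-Cytb was at 1672 ± 152, 1196 ± 304 and 854 ± 98.5, and mt-Nd6 at 1406 ± 208, 936 ± 49.2 and 1991 ± 174. mt-Co1 thus overlapped with mt-Cytb in WT_FGO and was first in Treat_MII, which FPKM placed after mt-Nd6. mt-Nd4 moved to 418 ± 296, 415 ± 62.6 and 414 ± 103, close to mt-Nd5 at 439 ± 191, 374 ± 100 and 396 ± 22.9. The ratio between groups for a single gene is by construction the same on both scales. The scale by unrepeated words holds only if reads from repeated words were not counted, which is not known here. If they were counted, it overstates genes such as mt-Co1 and mt-Nd4, with 66.7% and 63.7% of their words repeated.

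Shares within a library do not depend on its scaling. Of the reads on the 7 genes, mt-Cytb held 32.8% (95% Wilson interval 28.9 to 37.0) and 35.3% (31.2 to 39.7) in WT_FGO, 28.7% (25.2 to 32.6) and 30.2% (27.6 to 33.0) in WT_MII, and 17.6% (15.9 to 19.4) and 17.3% (15.4 to 19.5) in Treat_MII. mt-Co1 held 17.6% and 16.6% in WT_FGO, 19.1% and 23.4% in WT_MII, and 29.4% and 32.5% in Treat_MII. mt-Nd6 held 12.4% and 12.3%, then 11.4% and 8.97%, and in the treated libraries 17.4% and 17.8%. For each of these 3 genes the intervals of both treated libraries, as plotted by share, lay apart from the values of the 4 control libraries. The shares of mt-Nd4 (2.29% to 5.598%), mt-Nd5 (9.77% to 15.1%), mt-Nd2 (8.11% to 13.5%) and mt-Nd1 (7.78% to 14.6%) did not separate the treated libraries from the rest.

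The contrast was sharpest in a ratio chosen after its values were seen. The FPKM of mt-Nd6 over that of mt-Cytb came to 0.835 and 0.769 in WT_FGO, 0.879 and 0.658 in WT_MII, and 2.19 and 2.28 in Treat_MII. All 4 control libraries lay below 1 and both treated libraries above 2. mt-Co1 over mt-Cytb was 0.397 and 0.349, then 0.493 and 0.576, and 1.24 and 1.39 in the treated libraries. An exact two-sided permutation test of 2 libraries against 2 cannot give a p below 0.333, which is the value for both ratios between Treat_MII and WT_MII.

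**Figure D3:**
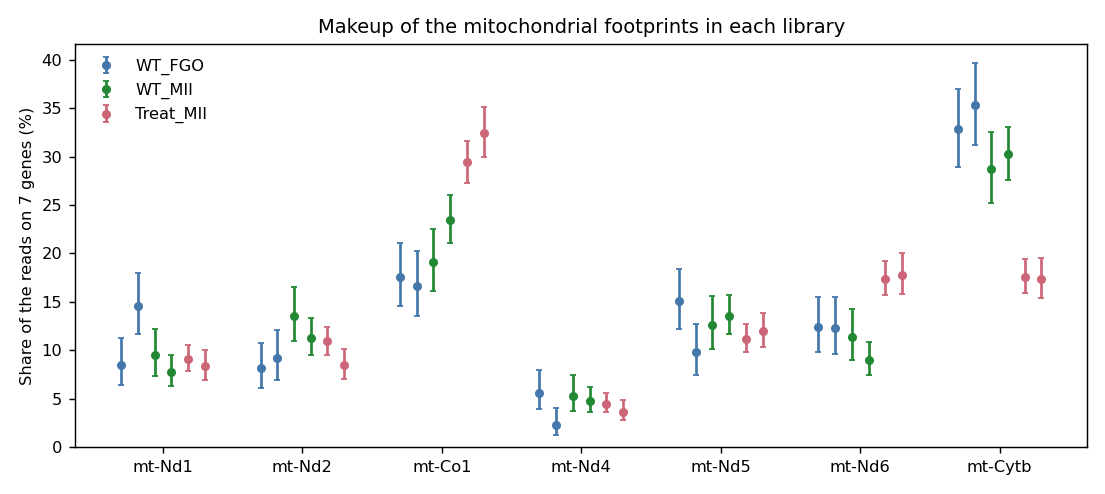
Share of the reads on the 7 measured genes that fell on each gene, in percent, for all 6 libraries, with 95% Wilson intervals (counting error only) and colours by group. In the treated libraries mt-Co1 holds 29.4% and 32.5% and mt-Cytb 17.6% and 17.3%, against 16.6% to 23.4% and 28.7% to 35.3% in the controls.

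The question of the first comparison was which footprints change between fully grown and mature oocytes. No mitochondrial gene changed at an adjusted p under 0.05 in limma across the 15127 genes that averaged 1 FPKM or more, of which 6.76% were called, 3.67% higher and 3.09% lower. The 3 genes at 0 could not be tested. In median centring each library was shifted so that its median deviation from the gene means over the 6 libraries was 0. With it 5.01% of all genes were called higher and 2.02% lower. At an unadjusted p under 0.05, 1 of the 7 genes passed, where 22.8% of all genes did. The changes that follow are differences in log2(FPKM + 1), WT_MII minus WT_FGO, and their SE is that of the limma fit; the added 1 makes the changes of low genes appear smaller. mt-Nd1 differed by -0.67 ± 0.29 (adjusted p = 0.247), mt-Nd6 by -0.58 ± 0.21 (adjusted p = 0.171) and mt-Cytb by -0.50 ± 0.25 (adjusted p = 0.326). These were the 3 genes whose WT_MII libraries were both below both WT_FGO libraries, as held for 25.8% of all genes. mt-Nd2 was the gene with the opposite order, at 0.22 ± 0.29, which held for 15.3% of all genes. mt-Co1 (0.01), mt-Nd4 (0.19) and mt-Nd5 (-0.19) overlapped. The median over the 7 genes was -0.19, beside -0.44 over all genes tested. With centring the median of all genes moved to 0.02 and the changes moved up with it: mt-Nd1 was then at -0.20, mt-Nd6 at -0.11, mt-Cytb at -0.04, mt-Nd2 at 0.69, mt-Nd4 at 0.65, mt-Co1 at 0.48 and mt-Nd5, which turned, at 0.28, with adjusted p between 0.385 and 0.971 in limma. The widest 95% interval was that of mt-Nd4, from -1.22 to 1.59.

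The second comparison asked what treatment during maturation does to the footprints. None of the 15127 genes tested, 0%, was called between Treat_MII and WT_MII in limma at an adjusted p under 0.05. An unadjusted p under 0.05 was found for 5.83% of these genes, among them mt-Nd6 and mt-Co1. mt-Nd6 was higher in both treated libraries by 1.09 ± 0.21 on the log2 scale (95% interval 0.57 to 1.60, limma adjusted p = 0.641). That is a ratio of mean FPKM of 2.13. mt-Co1 was higher in both by 0.83 ± 0.32 (0.06 to 1.61, limma adjusted p = 0.842), a ratio of 1.72. mt-Nd1, at 0.30 ± 0.29 (adjusted p = 0.963), was the other gene whose treated libraries both lay above both controls, as held for 16.2% of all genes. mt-Cytb had the reverse order with -0.47 ± 0.25 (adjusted p = 0.931), as held for 15.6% of all genes. mt-Nd2 (-0.07), mt-Nd4 (-0.02) and mt-Nd5 (0.11) overlapped, and the median over the 7 genes was 0.11 beside 0 over all genes tested. The highest and the lowest change belonged to mt-Nd6 and mt-Cytb, which follow each other among the protein-coding genes of the mitochondrial genome.

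The treated oocytes were also set against the fully grown ones, with the same treated libraries as in the comparison above. In limma 3.87% of all genes were called, none of them mitochondrial, and 19.9% passed at an unadjusted p under 0.05, with mt-Cytb and mt-Co1 among them. mt-Cytb differed by -0.97 ± 0.25 (95% interval -1.59 to -0.35, adjusted p = 0.105), a ratio of mean FPKM of 0.511. The median change over all genes tested was -0.53. With centring mt-Cytb was at -0.62 (adjusted p = 0.423), and after quantile normalization at -1.07 (adjusted p = 0.0441). mt-Co1 was at 1.19 and mt-Nd6 at 0.86 with centring, neither of them called. mt-Cytb was the 1 gene with both treated libraries below both of WT_FGO, as held for 28.9% of all genes. mt-Co1 (0.84 ± 0.32, adjusted p = 0.218) and mt-Nd6 (0.51 ± 0.21, adjusted p = 0.254) were above without overlap, as held for 16.6% of all genes. The other 4 genes overlapped, with changes between -0.36 for mt-Nd1 and 0.17 for mt-Nd4.

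**Figure D4:**
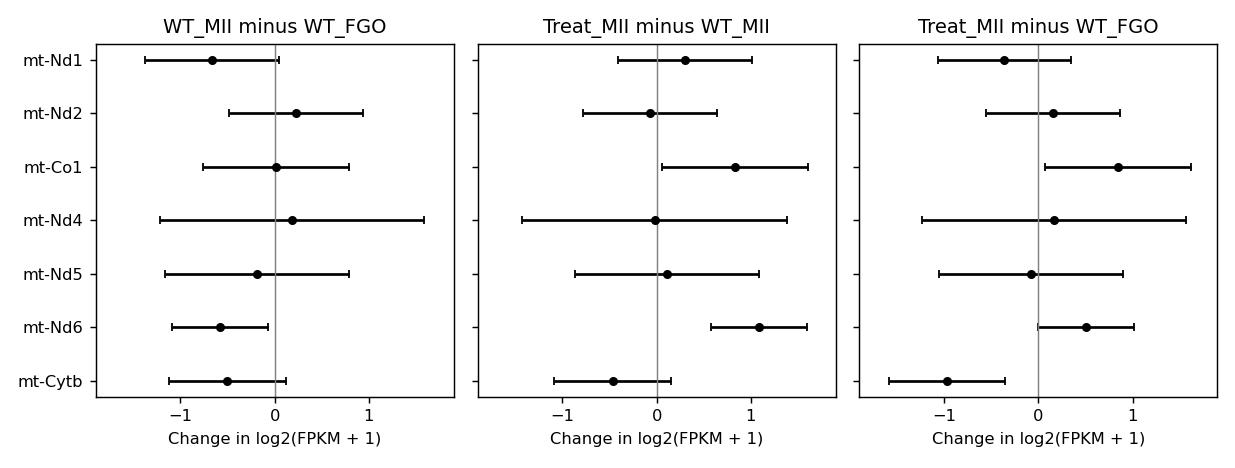
Differences in log2(FPKM + 1) between groups for the 7 measured genes, with 95% intervals from the limma fit, in 1 panel per comparison; the grey line marks 0. The interval of mt-Nd6 lies above 0 in the treatment comparison (0.57 to 1.60) and that of mt-Cytb below 0 between treated and fully grown oocytes, yet no adjusted p passed 0.05.

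Summed over the 10 genes, 5113 and 4331 FPKM were found in WT_FGO, 3227 and 4207 in WT_MII, and 5188 and 4438 in Treat_MII. As a percentage of the reads of each library this was 0.499 ± 0.0713, 0.410 ± 0.0897 and 0.495 ± 0.0520 (SD, n = 2). The ratio of means was 0.787 from WT_FGO to WT_MII and 1.29 from WT_MII to Treat_MII, both with an exact two-sided permutation p of 0.333, the smallest that 2 against 2 can give. It was 1.02 from WT_FGO to Treat_MII (exact p = 0.667). Between WT_MII and Treat_MII the ratio of the sum lay between those of mt-Nd6 (2.13) and mt-Co1 (1.72) on one side and of mt-Cytb (0.714) on the other.

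The nuclear subunits of the same complexes behaved otherwise at maturation. On a list of 38 such genes, the summed level came to 15599 and 12887 FPKM in WT_FGO, 2717 and 3408 in WT_MII, and 3662 and 3293 in Treat_MII. Of the 36 tested, 12 fell between WT_FGO and WT_MII at an adjusted p under 0.05 in limma, where 3.09% of all genes fell, none rose, and the median change was -2.18. These calls depended on the libraries: the count was 10 without replicate 2 of WT_MII, 6 and 7 without replicate 1 and 2 of WT_FGO, and 0 without replicate 1 of WT_MII or without either treated library, which enters the shared estimate of spread. The fitted change was below 0 for 33 of the 36. The lower level in WT_MII was shared by 10 of the 15 oocyte markers, median change -2.53, and by Gja1 and Hba-a1 of the other marker lists. The oocyte marker Oosp1 was called higher. What these markers share with the fall of the nuclear subunits was not tested. Against treatment 0 of the 36 were called, where 0% of all genes were, with a median change of 0.43. Complex by complex the median change at maturation was -3.45 for 7 core subunits of complex I, -1.94 for 9 of complex III, -1.56 for 10 of complex IV and -2.92 for the 10 tested of complex V. Summed mitochondrial over summed nuclear FPKM came to 0.328 and 0.336 in WT_FGO, 1.19 and 1.23 in WT_MII, and 1.42 and 1.35 in Treat_MII. This ratio did not overlap between fully grown and mature oocytes, with an exact two-sided permutation p of 0.333 for each comparison, the smallest possible.

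**Figure D5:**
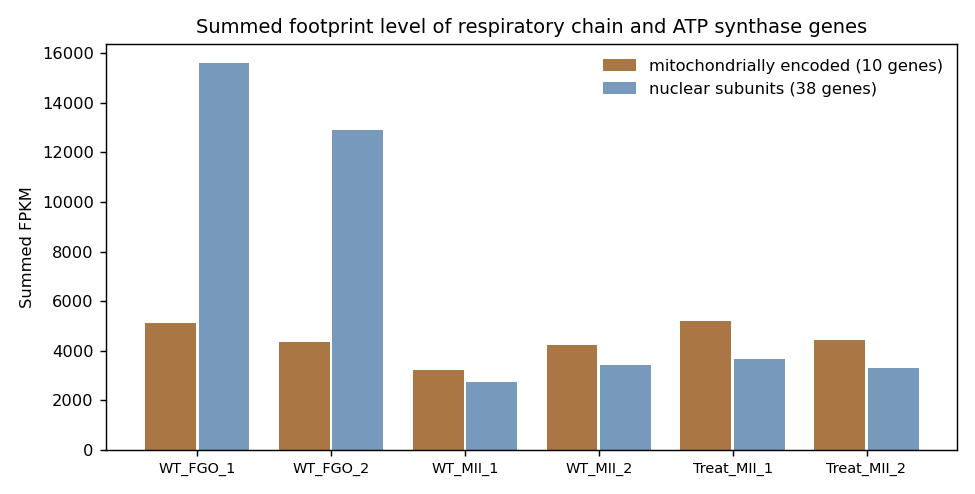
Summed FPKM of the 10 mitochondrially encoded genes (brown; 3 of them at 0) and of 38 nuclear genes of complexes I, III, IV and V (blue) in each library, bars from 0. The nuclear sum is between 2717 and 3662 in the metaphase II libraries against 12887 and 15599 in WT_FGO, while the mitochondrial sum stays between 3227 and 5188 in all 6.

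Among the partners of mt-Cytb in complex III, Uqcrq, a small supernumerary subunit, fell from 1529 ± 271 to 181 ± 2.28 FPKM (adjusted p = 0.00441). Uqcrh, the hinge protein that aids cytochrome c binding, fell from 1139 ± 130 to 230.3 ± 133 (adjusted p = 0.0350), and Uqcrc2, a core subunit, from 302 ± 29.4 to 21.03 ± 20.7 (adjusted p = 0.0370). Beside mt-Co1 in complex IV, Cox6c fell from 702 ± 125 to 217 ± 43.0 (adjusted p = 0.0313), Cox4i1 from 511 ± 31.7 to 57.8 ± 54.5 (adjusted p = 0.0450) and Cox7a2 from 1420.0 ± 322 to 193 ± 170 (adjusted p = 0.0452), all in limma and all smaller subunits around the mitochondrial core. For complex V, Atp5e, the epsilon subunit of the catalytic part, fell from 3059 ± 1537 to 391 ± 114 FPKM (adjusted p = 0.0154). Atp5j, a stalk subunit, and Atp5a1, the alpha subunit, were listed at 0 in both WT_MII libraries, at least 5.79-fold and 8.61-fold lower than in WT_FGO when 3 reads per library are taken as the floor (adjusted p = 0.00181 and 0.00678). The single call in complex I was Ndufs8, an iron-sulfur subunit, with 2 and 6 reads in WT_FGO and 0 in WT_MII, at least 2.47-fold lower (adjusted p = 0.0194).

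The nuclear genes that make, handle or translate mitochondrial RNA were examined next. Of 27 tested genes of mitochondrial transcription and RNA handling, 2 rose and 1 fell at maturation, beside 6.76% called among all genes, and the median change was -0.30. Mtpap, the mitochondrial poly(A) polymerase, rose from 22.7 ± 2.06 to 101 ± 6.63 FPKM (adjusted p = 0.0357) and was at 134 ± 11.7 in Treat_MII. Trmt10c, a subunit of the RNase P that cuts out mitochondrial tRNAs, had 0 reads in WT_FGO and 8 and 4 in WT_MII, at least 1.10-fold higher (adjusted p = 0.0408). Tfam, which packages mitochondrial DNA and starts its transcription, had 2 and 10 reads in WT_FGO and 0 in WT_MII, at least 3.67-fold lower (adjusted p = 0.0250). Of 19 tested mitochondrial translation factors, 0 were called in limma in either direction, beside the same 6.76% of all genes. An unadjusted p under 0.05 was found for 2 of them, where 22.8% of all genes had one. The median change of the translation factors was -1.11. The most abundant of these were Cox14, which acts in mt-Co1 synthesis and assembly, at 195 ± 187 FPKM in WT_FGO and 175 ± 104 in WT_MII, and Gfm1, an elongation factor, at 46.7 ± 39.4 and 151 ± 12.0. None of either list was called between Treat_MII and WT_MII, where 0% of all genes were. The 3 calls of RNA handling became 6 without replicate 2 of WT_FGO, 1 without replicate 2 of WT_MII and 0 without replicate 1 of WT_MII or either treated library.

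The 3 non-mitochondrial genes whose levels most resembled the mean log2(FPKM + 1) of the 7 measured genes over the 6 libraries were Ube2c, a ubiquitin-conjugating enzyme that works with the anaphase-promoting complex (Pearson r = 0.971), Sypl (r = 0.944) and Ube2d3 (r = 0.940), among 1133 genes that averaged 100 FPKM or more. These correlations rest on 6 libraries that share groups and are given as a description. Ube2d3, another such enzyme, ranged from 997 FPKM in replicate 1 of WT_MII to 1652 in replicate 1 of Treat_MII, the same libraries that held the lowest and the highest mitochondrial sum. The 7 genes themselves did not share 1 profile. Their correlations with each other ran from -0.48 (mt-Cytb with mt-Co1) to 0.85 (mt-Nd4 with mt-Nd5), so likeness to the mean is not likeness to each gene.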

How the data were processed

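Ribosome footprints of 6 oocyte libraries were analysed. The FPKM values were made and deposited by the authors, 1 column per library and 1 row per gene; the labels name mm10, and the submitters' processing notes name cutadapt 1.14, Bowtie2 2.2.2 and STAR 2.5.3a without their roles. The counting program, annotation and treatment of multiply placed reads are not given in the sources used here. The table held 22442 rows, of which 26 with a repeated name were left out. FPKM multiplied by the GENCODE coding length gave whole reads, within 0.02, for 98.4% of genes with a length, from which reads and depth were recovered.

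log2(FPKM + 1) was fitted with limma 3.58.1 (R 4.3.3; lmFit, eBayes with trend) for genes averaging 1 FPKM or more, all 6 libraries in 1 fit, with Benjamini-Hochberg adjustment and a threshold of 0.05. The script was run on simulated data whose planted changes were larger than any of the mitochondrial genes, so its power for changes of their size was not measured. Sums and ratios were compared by exact permutation. Words of 28 and 34 bases were searched in GRCm38, and copies aligned with BLAST 2.17.0. From the nuclear lists, at most 3 called genes per list with the lowest adjusted p were named, otherwise the 2 most abundant. The genes and lists were chosen with earlier results of these data known. Replicate numbers were not taken as pairs. For each group the deviation of replicate 1 from the group mean was taken in log2(FPKM + 1). These deviations correlated at 0.0319 between WT_FGO and WT_MII, 0.101 between WT_MII and Treat_MII, and -0.0160 between WT_FGO and Treat_MII, over 1164 genes. Alternatives changed the pseudocount, filter, normalization, model and libraries used.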

Additional observations from a re-analysis of the deposited data

How the results depend on the processing

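No mitochondrial gene was called in the maturation or treatment comparison under any of the 15 alternatives. Between treated and fully grown oocytes 1 gene, mt-Cytb, was called after quantile normalization, with a change of -1.07; the cause was not tested. A fit with the replicate number as a block called 0 genes in each comparison, with smallest adjusted p of 0.244, 0.985 and 0.158. Of 315 changes of single genes recomputed, 297 kept their direction and side of the threshold. Those that turned direction belonged to genes whose groups overlapped. Median centring moved all changes at maturation upward, to the values given with them. With it mt-Nd5 was at 0.28 for maturation, -0.00542 for treatment and 0.27 for treated against fully grown. When each library was left out in turn, the changes that turned direction ranged from -0.64 to 0.27 for mt-Nd5, -0.60 to 0.97 for mt-Nd4 and -0.36 to 0.39 for mt-Co1 at maturation; from -0.17 to 0.39 for mt-Nd5, -0.28 to 0.24 for mt-Nd4 and -0.36 to 0.22 for mt-Nd2 with treatment; and from -0.53 to 0.38 for mt-Nd5, -0.62 to 0.95 for mt-Nd4 and -0.14 to 0.44 for mt-Nd2 between treated and fully grown oocytes. The ratio of summed levels between treated and fully grown oocytes was 0.992 from shares of recovered reads and 0.940 to 1.11 with a library left out, against 1.02. The 12 calls among nuclear subunits at maturation were 4 without the filter, 8 with a pseudocount of 0.1, 3 without the trend and 2 with only the compared groups in the fit, and the 3 calls of RNA handling were 1 without the filter or with the block and 0 in the last pair of fits; median centring called 1 translation factor in place of 0. Without the filter 1 nuclear subunit was called between Treat_MII and WT_MII, in place of 0. The depth, 11 to 518 reads a gene and 2 libraries a group, limits all of these values.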
